A study of Eucalyptus nitens with 12 samples.

Results

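In Eucalyptus nitens, the shining gum, 32 genes had transcripts that were less abundant in low than in high kraft pulp yield trees in the Meunna trial and at nearly the same level in both kinds of tree in the Florentine trial. RNA was taken from cambial scrapings, labelled as xylem, of trees with a labelled age of 20 years. Each library was made from a bulk that pooled RNA of several trees from the high or the low end of kraft pulp yield (KPY, the share of dry wood recovered as pulp). Each trial gave 3 high KPY bulks and 3 low KPY bulks, so there were 12 libraries in 4 groups, named Meunna high, Meunna low, Florentine high and Florentine low. No treatment was given to the trees, and the trials, both in Tasmania, were sampled in different years and months (March at Meunna and May at Florentine), so site and season cannot be told apart between them. According to the study each bulk pooled more trees at Florentine than at Meunna, so pool size cannot be told apart from trial. As the study describes it, the libraries of each trial shared a sequencing lane, so lane and trial may coincide as well. Trees at the KPY extremes of these trials also differed in growth according to the study, so KPY class and growth cannot be told apart either. The bulks are the replicates, and p-values measure the spread between bulks, not between trees.

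The 32 genes were chosen by their measured values. Among gene identifiers with exactly 1 predicted transcript in each trial's table (12224 genes), 10586 had a mean of at least 3 CPM (read counts scaled to library size, here with the TMM factors of edgeR within the trial) over the 6 libraries of both trials. The KPY difference L was the log2 ratio of mean low to mean high KPY CPM, each with 0.1 added. Of the 10586 genes, 1457 had an L of -1 or less at Meunna with every low KPY bulk below every high KPY bulk, and 32 of these, or 2.20%, had an L between -0.3 and 0.3 at Florentine. The KPY differences of both trials, and the difference between them, were therefore used in choosing the genes and are given here as a description. How many of them a test called is given below only as a count beside the share of all features, and nothing is read from it.

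Developing xylem turns cambial daughter cells into vessels and fibres that thicken their walls, and vessel cells then die and clear their contents, a process carried out by proteases and nucleases that the cell makes beforehand. NAC-domain transcription factors of the VND group switch on vessel differentiation in Arabidopsis, and related NAC proteins do the same for fibres. By name, the annotated genes among the 32 included a vessel-type NAC factor, proteases named for xylem, enzymes of oxygen radical and nitrogen metabolism, and members of defence protein families. An annotation was at hand for 13 of the 32. These 13 had the most negative L at Meunna. Names came from shortened copies of the study's supplementary tables, mostly of genes called on these same libraries. The lack of a name for the other 19 therefore says nothing about their function.

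Library totals ran from 49489614 to 70097142 counts in Meunna low, 75565811 to 89987549 in Meunna high and 44538273 to 53775708 over the 6 Florentine libraries. TMM factors were 1.095 to 1.13 in Meunna low and 0.857 to 0.946 in Meunna high. The lowest count of any of the 32 genes in any library was 10 and the highest was 11045. Markers of developing wood (13 genes with 22 transcripts at Meunna and 12 genes with 16 transcripts at Florentine, none of them at 0 in any library) summed to 8425 to 11560 CPM in Meunna high and 1058 to 2365 CPM in Meunna low. At Florentine the same sum was 14106 to 16337 CPM in the high and 2131 to 5904 CPM in the low KPY bulks. Wood markers were thus lower in low KPY in both trials. They were picked or named largely from the study's lists of genes called on these same libraries, as were the markers below. The fall of the wood markers was therefore largely set by their choice, and nothing about the 32 genes is read from it. Green bark markers summed to 300 to 371 CPM in Meunna high against 180 to 214 CPM in Meunna low, and to 326 to 339 against 193 to 242 CPM at Florentine. Of their transcripts, edgeR called 6 of 12 lower and 0 higher in low KPY at Meunna, and 7 of 13 lower and 5 higher at Florentine. The phloem list held 1 gene, at 1.78 to 3.44 CPM in Meunna high and 0.153 to 0.662 CPM in Meunna low, and at 1.23 to 2.2 against 0.203 to 1.1 CPM at Florentine. The part of these marker shifts in the values below was not tested, and in bulk tissue fewer cells of a type and less RNA per cell cannot be told apart.

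Over the 32 genes the median L was -1.23 at Meunna, with a range from -2.55 to -1.001, and -0.12 at Florentine, with a range from -0.30 to 0.28. Over the 10586 genes the medians were -0.08 and 0.00. Of the 1457 genes lower at Meunna, 915 also had an L of -1 or less at Florentine, 499 lay between -1 and -0.3, and 11 were at 0.3 or more. The mirror image, an L of -1 or less at Florentine with no overlap and an L within 0.3 of 0 at Meunna, was met by 4 of 998 genes. In the plot of the 2 KPY differences the 32 genes thus lie near the upper edge of a cloud of genes whose differences mostly ran the same way in both trials.

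**Figure D1:**
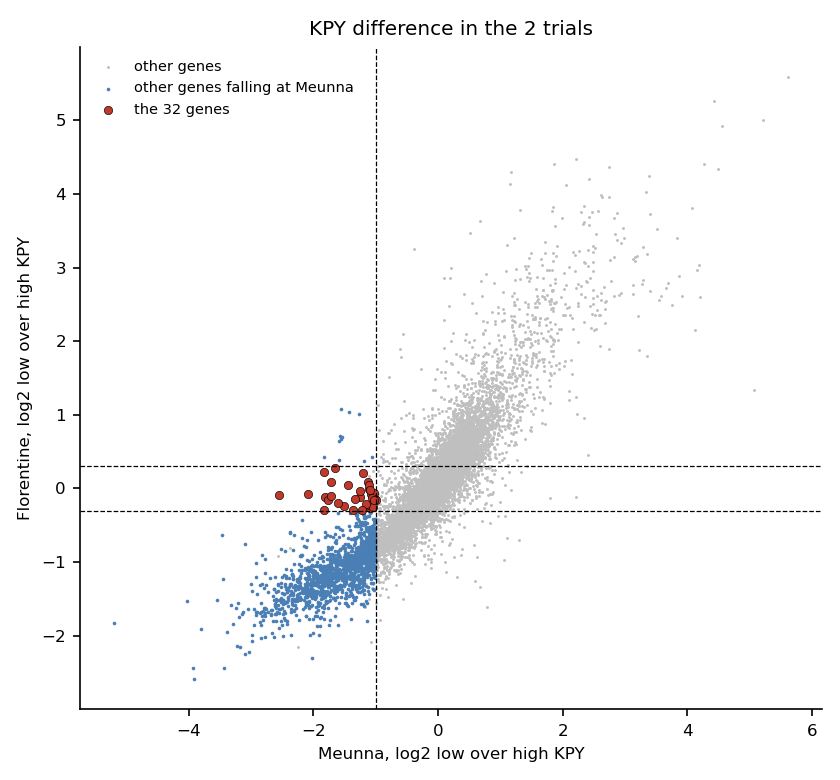
KPY difference at Meunna (x axis) against Florentine (y axis), both as log2 of mean low over mean high KPY CPM, for 10586 genes. Dashed lines mark the limits of -1, -0.3 and 0.3, blue points are the other genes lower at Meunna without overlap of the bulks, and the 32 red points lie above nearly all of them.

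The limits divided genes with close values. At the Meunna limit, Eucgr.K03505 (-1.02), Eucgr.B03877 (-1.01) and Eucgr.E02507 (-1.001) lay just inside and Eucgr.D02642 (-0.99), Eucgr.H00449 (-0.98) and Eucgr.H03146 (-0.96) just outside. At the Florentine limit, Eucgr.K03248 (-0.297), Eucgr.H02220 (-0.29) and Eucgr.L00816 (-0.29) lay just inside and Eucgr.J01897 (-0.305), Eucgr.E02674 (-0.31) and Eucgr.D02034 (-0.31) just outside. At the CPM limit the lower of the 2 trial means was 3.07 for Eucgr.K03248, 3.71 for Eucgr.B01237 and 3.81 for Eucgr.B03877 inside, and 2.97 for Eucgr.G02325, 2.91 for Eucgr.D00852, a sulfite exporter of the TauE/SafE family, and 2.87 for Eucgr.I02758 outside. Eucgr.K03248 stood at both the Florentine and the CPM limit.

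By edgeR's quasi-likelihood test with Benjamini-Hochberg adjustment over the whole Meunna table, 25 of the 32 genes passed a false discovery rate (FDR) of 0.05, against 16.9% of all transcripts called lower in low KPY and 28.0% called in either direction. DESeq2 called all 32, against 38.2% of all transcripts. Nothing is read from these counts, since the same values chose the genes, and without Meunna high 3 edgeR's count was 14. With 1 Meunna bulk left out, 15.8% to 22.7% of all transcripts were called. The 7 that missed it were Eucgr.I02548, Eucgr.I02560, Eucgr.F03589, Eucgr.E00885, Eucgr.J02430, Eucgr.L03417 and Eucgr.C03089. At Florentine 0 of the 32 passed (39.5% of all transcripts did), 2 had an unadjusted p under 0.05 (51.2% of all transcripts), and DESeq2 called 0 (48.2%). With library size alone, or without Florentine low 1, edgeR called 1 of the 32 at Florentine. The share of all transcripts called at Florentine rested on single bulks. It was 0 of 23917 without Florentine high 1 or without Florentine high 3, 11.4% without Florentine low 3 and 27.7% to 43.0% without 1 of the others. In the first 2 cases the unadjusted p was under 0.05 for 10009 and 9701 transcripts, and DESeq2, added after seeing the data, called 37.6% and 34.1%, with 2 and 0 of the 32 genes among them. A difference between the trials in the KPY difference was called by edgeR's interaction contrast for 0 of the 32 genes and 0 of the 12224, with FDR from 0.382 to 0.897 over the 32. At an unadjusted p under 0.05 there were 27 of the 32 and 6.46% of the 12224 genes, and DESeq2 called 2 of the 32 and 0.532% of the genes. None of the 12224 genes, and so none of the 32, passed the main test of this difference. Nothing about the 32 is read from these counts, since the same difference had been used in choosing them. The near level at Florentine also depended on the scaling. With library size alone, the median L of all 10586 genes moved up by 0.30 at Meunna and 0.31 at Florentine, and all 32 genes then had an L above 0 at Florentine (0.00 to 0.58), while all 32 stayed below 0 at Meunna (-2.25 to -0.70). The median of the 32 genes at Florentine was -0.12 beside 0.00 for all genes with TMM, and 0.18 beside 0.32 with library size alone.

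**Figure D2:**
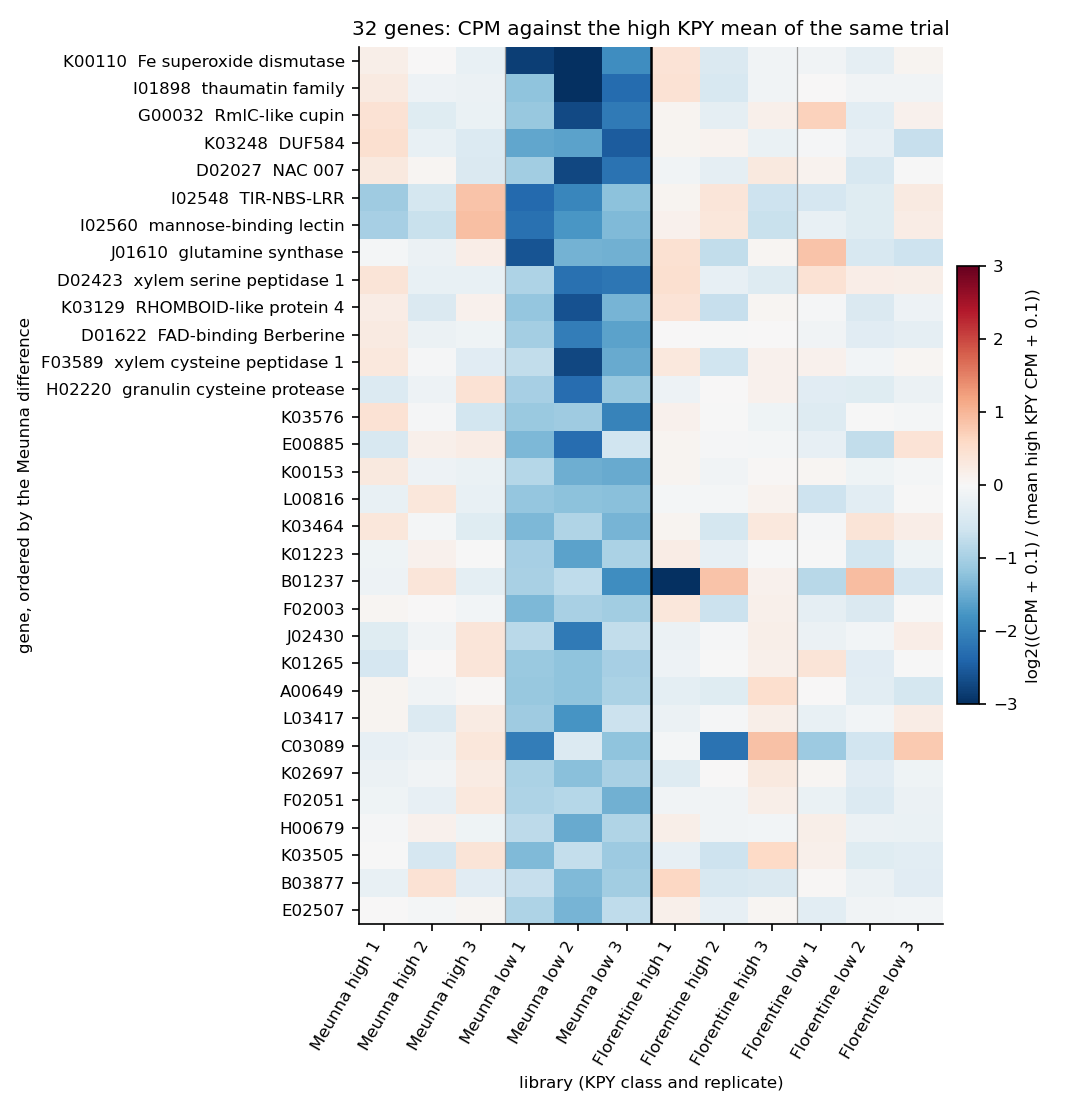
Heat map of log2((CPM + 0.1) / (mean high KPY CPM of the same trial + 0.1)) for the 32 genes (rows, ordered by L at Meunna) in the 12 libraries (columns, by trial, KPY class and replicate). Blue cells are below the high KPY mean of the trial, and the 3 Meunna low columns are blue throughout, while the 6 Florentine columns are mostly pale apart from Eucgr.B01237 and Eucgr.C03089.

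Eucgr.D02027, annotated as NAC 007, is the transcription factor of the group. In Arabidopsis NAC007 is also named VND4 and belongs to the regulators of vessel formation. Its level was 13.04, 11.1 and 7.95 CPM in the Meunna high bulks and 5.17, 1.54 and 2.22 CPM in the Meunna low bulks, a mean of 10.7 ± 2.57 against 2.98 ± 1.93 (SD, n = 3) and an L of -1.81. The classes did not touch, but the low KPY bulks differed from each other by more than the gap between the classes, and without Meunna low 1 the L was -2.44. At Florentine it stood at 4.00, 3.56 and 5.28 CPM in high and 4.61, 3.02 and 4.21 CPM in low KPY bulks, an L of -0.11 with the classes mixed. All 6 Florentine values lay below the 3 Meunna high values, in or just above the range of Meunna low. CPM values of the trials set side by side here and below were scaled within each trial, and scaling the 12 libraries together raises Florentine by 0.15 on the log2 scale relative to Meunna.

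A pair of xylem proteases carried the names xylem cysteine peptidase 1 and xylem serine peptidase 1. In Arabidopsis the first is a papain-like protease of vessel elements that helps to degrade the cell contents, and the second is a subtilisin-like protease found in xylem. The cysteine peptidase, Eucgr.F03589, was among the most abundant of the 32 genes, at 125, 98.7 and 79.3 CPM in Meunna high and 60.8, 15.3 and 35.3 CPM in Meunna low (101 ± 23.1 against 37.1 ± 22.8, SD, n = 3, L -1.44). The Meunna low bulks were far apart, and the gene did not pass FDR 0.05 at Meunna. At Florentine the values were 40.5, 21.4 and 35.6 CPM in high and 35.7, 30.9 and 33.9 CPM in low KPY (L 0.04), so that all 6 bulks sat below the lowest Meunna high bulk. The serine peptidase, Eucgr.D02423, was at 19.3, 12.6 and 12.7 CPM in Meunna high and 7.78, 3.05 and 3.22 CPM in Meunna low (L -1.65). It had the highest Florentine L of the 32 genes, 0.28, from 6.07, 3.61 and 3.29 CPM in high and 5.85, 5.00 and 4.94 CPM in low KPY, where the highest value belonged to a high KPY bulk. Eucgr.H02220, a granulin-repeat cysteine protease of the type called RD21 in Arabidopsis, was at 36.5, 43.4 and 65.8 CPM in Meunna high and 24.3, 9.85 and 22.2 CPM in Meunna low (L -1.37). Its Florentine values were 21.3, 23.8 and 25.8 CPM in high and 18.6, 18.3 and 20.9 CPM in low KPY (L -0.29), so that the classes did not overlap there. A like pattern at Florentine was found for Eucgr.D01622 and Eucgr.F02051, so 3 of the 32 genes had classes that did not overlap at Florentine, against 68.5% of the 10586 genes. The limit on L at Florentine bears directly on this count.

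The largest Meunna difference belonged to Eucgr.K00110, annotated as Fe superoxide dismutase 1, an enzyme that turns superoxide into hydrogen peroxide and oxygen and that in Arabidopsis works in plastids. It stood at 149, 132 and 113 CPM in Meunna high and 18.4, 12.4 and 36.2 CPM in Meunna low (131 ± 18.3 against 22.3 ± 12.4, SD, n = 3), a ratio of means of 5.87 and an L of -2.55. The lowest high KPY bulk held about 3 times the level of the highest low KPY bulk. At Florentine it was at 19.4, 10.7 and 13.4 CPM in high and 13.5, 12.0 and 15.3 CPM in low KPY (L -0.09), at or below the level of Meunna low.

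Eucgr.J01610, annotated as glutamine synthase clone F11, belongs to the enzymes that fix ammonium into glutamine, a step that takes up the ammonium released when phenylalanine enters lignin synthesis. It was at 21.1, 19.2 and 25.3 CPM in Meunna high and 3.54, 8.17 and 7.98 CPM in Meunna low (L -1.72). Florentine gave 5.85, 2.51 and 4.43 CPM in high and 7.79, 3.03 and 2.76 CPM in low KPY (L 0.08), a wide scatter around the Meunna low level, and the L ran from -0.54 without Florentine low 1 to 0.38 without Florentine high 1. Eucgr.D01622, of the FAD-binding Berberine family of oxidases, was at 71.4, 52.2 and 54.1 CPM in Meunna high and 29.0, 13.99 and 19.3 CPM in Meunna low (L -1.51). Its 3 Florentine high bulks agreed to within a narrow range, 25.2, 24.7 and 25.3 CPM, and all exceeded the low KPY bulks at 23.3, 19.7 and 20.9 CPM (L -0.23). Eucgr.G00032, an RmlC-like cupin, belongs to a large superfamily of seed storage and germin-like proteins. It was at 42.6, 24.6 and 27.6 CPM in Meunna high and 14.3, 4.76 and 7.23 CPM in Meunna low (L -1.84), and at 8.57, 6.64 and 9.02 against 13.1, 6.46 and 8.81 CPM at Florentine (L 0.23). As for the superoxide dismutase, every Florentine bulk lay below the Meunna high range.

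Several genes came from families known for defence. Eucgr.I01898, a thaumatin family protein of the pathogenesis-related kind, was at 31.7, 23.7 and 23.2 CPM in Meunna high and 11.2, 1.94 and 5.21 CPM in Meunna low (L -2.08). The low KPY bulks were as unlike each other as any in the group, with a coefficient of variation of 76.9%, the largest of the 32 genes in Meunna low, and the L was -2.82 without Meunna low 1. Florentine stood between the Meunna classes for this gene, at 22.02, 11.8 and 15.3 CPM in high and 16.6, 15.1 and 15.1 CPM in low KPY (L -0.07). Eucgr.I02548, a TIR-NBS-LRR disease resistance protein of the kind that senses pathogens inside the cell, was at 13.2, 19.2 and 50.4 CPM in Meunna high and 5.38, 7.09 and 11.7 CPM in Meunna low (L -1.76). Eucgr.I02560, a mannose-binding lectin, was at 9.77, 12.3 and 36.3 CPM in Meunna high and 4.06, 5.73 and 7.69 CPM in Meunna low (L -1.72). Both differences leaned on Meunna high 3. Without that bulk the L was -0.998 for Eucgr.I02548 and -0.91 for Eucgr.I02560. At Florentine they were at 12.6, 15.4 and 7.70 against 8.39, 9.24 and 14.3 CPM and at 7.97, 9.28 and 4.53 against 6.16, 5.64 and 8.45 CPM (L -0.16 and -0.10). The 2 identifiers lie close together by number, and the ratio of the lectin to the resistance gene stayed between 0.588 and 0.808 in all 12 libraries. Reads shared between overlapping or near-identical transcripts were not tested, so the pair may not be 2 independent genes.

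The last annotated genes were Eucgr.K03129, RHOMBOID-like protein 4, from a family of proteases that cut within membranes, and Eucgr.K03248, a protein with the domain DUF584 of unknown function. Eucgr.K03129 was at 15.3, 9.78 and 14.4 CPM in Meunna high and 5.82, 2.07 and 4.90 CPM in Meunna low (L -1.60), and at 8.84, 4.03 and 6.91 against 6.45, 4.83 and 5.92 CPM at Florentine (L -0.20). Eucgr.K03248 had the lowest levels of the annotated genes, at 10.7, 6.57 and 5.71 CPM in Meunna high and 2.54, 2.46 and 1.27 CPM in Meunna low (L -1.83), and at 3.60, 3.65 and 2.92 against 3.32, 2.86 and 2.05 CPM at Florentine (L -0.30). Both genes had a Florentine level between the Meunna classes.

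**Figure D3:**
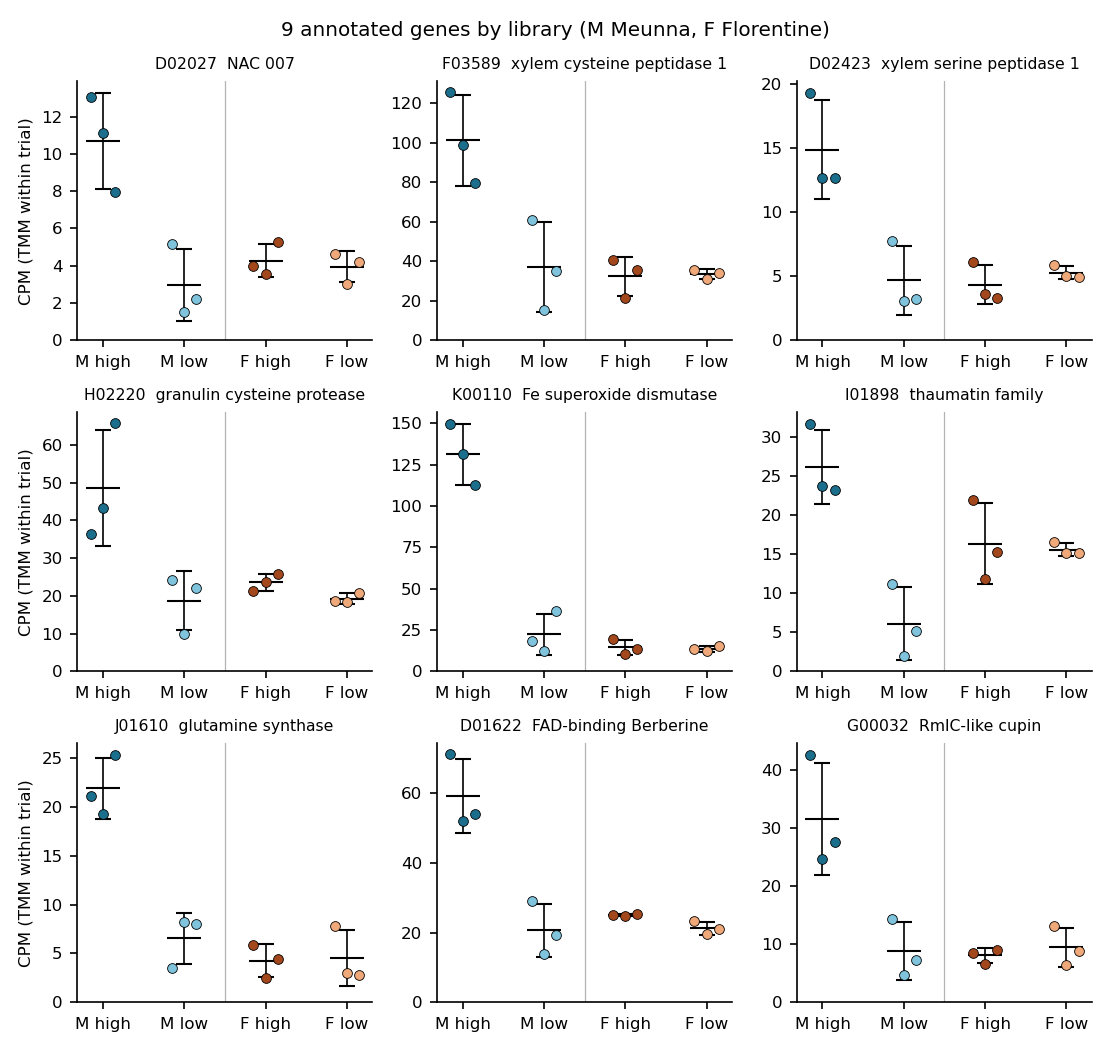
CPM (TMM within each trial) of 9 annotated genes in each library, with the mean and SD of the 3 bulks of a group, each panel with its own axis from 0. On this scale the Meunna high points stand apart at the top of every panel, and all 6 Florentine points lie below them. They come nearest for Eucgr.I01898, with 22.02 CPM against 23.2 CPM in the lowest Meunna high bulk. With the 12 libraries scaled together this order does not hold for Eucgr.I01898. Among annotated genes not shown, Eucgr.I02548 had Florentine bulks at 15.4 and 14.3 CPM, above its lowest Meunna high bulk at 13.2 CPM.

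Among the genes with no annotation at hand, Eucgr.K01223 had the highest level of the 32. It was at 112, 135 and 121 CPM in Meunna high and 61.3, 40.5 and 63.4 CPM in Meunna low (L -1.15), and at 149, 108 and 126 against 127, 87.0 and 118 CPM at Florentine (L -0.21). Here both Florentine classes were at the Meunna high level, unlike the superoxide dismutase and the peptidases. Eucgr.K00153 was at 77.4, 56.5 and 55.0 CPM in Meunna high and 34.7, 22.7 and 22 CPM in Meunna low (L -1.25), with all 6 Florentine bulks between 49.5 and 56.8 CPM (L -0.04). Eucgr.H00679 was at 59.3, 66.4 and 55.7 CPM in Meunna high and 34.8, 21.2 and 32.5 CPM in Meunna low (L -1.03), and at 65.6, 53.9 and 54.4 against 65.0, 51.3 and 50.5 CPM at Florentine (L -0.06). For both genes the Florentine classes covered the same range. Eucgr.J02430 was at 63.4, 75.5 and 105 CPM in Meunna high and 46.0, 18.6 and 48.4 CPM in Meunna low (L -1.11), and at 51.6, 57.3 and 66.3 against 51.8, 55.2 and 67.2 CPM at Florentine (L -0.01). Meunna low 2 stood well below the other low KPY bulks for this gene.

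With the 12 libraries scaled together, some unannotated genes had a mean level at Florentine above that of both Meunna classes, while the CPM given here are scaled within each trial. Eucgr.F02003 was at 19.3, 18.7 and 17.5 CPM in Meunna high and 7.25, 9.38 and 8.98 CPM in Meunna low (L -1.11), and at 27.6, 13.9 and 24.1 against 18.1, 16.1 and 21.8 CPM at Florentine (L -0.23). Eucgr.A00649 was at 18.1, 16 and 17.6 CPM in Meunna high and 7.78, 7.38 and 8.91 CPM in Meunna low (L -1.09), and at 17, 16.3 and 29.8 against 21.4, 16.8 and 14.5 CPM at Florentine (L -0.26). The Meunna bulks of each class were close together for both genes and the Florentine bulks were not. Eucgr.K03505 was at 32.3, 23.0 and 42.1 CPM in Meunna high and 12.8, 19.8 and 15.2 CPM in Meunna low (L -1.02), and at 29.2, 22.5 and 52.8 against 38.5, 27.1 and 27.7 CPM at Florentine. Eucgr.L03417, at 5.80, 4.11 and 6.50 CPM in Meunna high and 2.55, 1.54 and 3.47 CPM in Meunna low (L -1.09), ran from 4.68 to 6.39 CPM at Florentine (L -0.02). Eucgr.B03877, at 4.39, 6.92 and 4.06 CPM in Meunna high and 3.11, 1.97 and 2.41 CPM in Meunna low, ran from 5.29 to 11.4 CPM at Florentine. For Eucgr.K03505 and Eucgr.B03877 a single Florentine high bulk gave the highest value of all 12 libraries.

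Others had a lower mean at Florentine than in either Meunna class on both scales. Eucgr.E02507 was at 19.6, 18.5 and 20.1 CPM in Meunna high and 10.2, 7.32 and 11.4 CPM in Meunna low, and ran from 4.84 to 6.76 CPM at Florentine. Eucgr.K02697 was at 51.3, 54.6 and 69.3 CPM in Meunna high and 30.3, 24.4 and 29.6 CPM in Meunna low (L -1.05), and ran from 16.6 to 26.5 CPM at Florentine (L -0.13). Apart from the highest Florentine bulk of Eucgr.K02697, these Florentine levels were below every Meunna bulk. Eucgr.B01237 was the least steady of the 32 in both Florentine classes, at 26, 37.2 and 23.4 CPM in Meunna high, 14.6, 17.1 and 7.87 CPM in Meunna low, and 0.247, 6.57 and 3.96 against 1.98, 6.97 and 2.52 CPM at Florentine. Its L of 0.09 at Florentine thus averaged over high KPY bulks from 0.247 to 6.57 CPM, and leaving out 1 Florentine bulk moved it between -0.65 (without low 2) and 0.85 (without high 2). Eucgr.C03089, chosen here after its values were seen, was in the same position, with 20.7, 4.58 and 39.7 against 10.1, 14.5 and 37.3 CPM at Florentine (L -0.07) and a range from -0.81 without Florentine low 3 to 0.72 without Florentine high 3. For these 2 genes and for Eucgr.J01610 a near level at Florentine was not resolved by 3 bulks a class. For 20 of the 32 genes the L at Florentine left the range from -0.3 to 0.3 without at least 1 of the 6 bulks. At Meunna Eucgr.C03089 was at 21.7, 23.1 and 33.0 CPM in high and 6.04, 19.7 and 11.3 CPM in low KPY (L -1.07).

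The remaining unannotated genes are named for completeness and after their values were seen, except Eucgr.L00816, which stood at the Florentine limit. Eucgr.L00816 was at 21.3, 31.4 and 21.3 CPM in Meunna high and 11.0, 10.4 and 10.3 CPM in Meunna low, the tightest low KPY group of the 32 with a coefficient of variation of 3.65%, and its Florentine bulks ran from 11.8 to 19.8 CPM. Eucgr.K03576 (L -1.32 and -0.14 at Meunna and Florentine), Eucgr.E00885 (-1.26 and -0.12), Eucgr.K03464 (-1.203 and 0.20), Eucgr.K01265 (-1.10 and 0.05) and Eucgr.F02051 (-1.05 and -0.26) completed the group. Letters A to K of the identifier give the chromosome of the E. grandis reference, while L does not. K was carried by 10 of the 32 genes against 10.0% of the 10586 genes and 10.8% of the 1457 genes lower at Meunna. This share is a description, since the genes were chosen by their values.

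The 32 genes were uneven between bulks of the same class. Their median coefficient of variation over 3 bulks was 23.7% in Meunna high, 35.1% in Meunna low, 21.9% in Florentine high and 15.1% in Florentine low, against 11.3%, 14.1%, 8.85% and 12.4% over the 10586 genes. Bulks held more trees at Florentine than at Meunna, and the part of this in the spreads was not tested. Meunna low 2 was the lowest of its class for 19 of the 32 genes and for 40.0% of the 10586 genes. Among the 13 annotated genes it was the lowest for 9, among them the NAC factor, all 3 xylem and granulin proteases, the thaumatin and the superoxide dismutase. Florentine high 2 was the lowest of its class for 18 of the 32 genes and for 35.2% of all, and for 8 of the 13 annotated genes. With Meunna low 2 left out, 23 of the 32 genes still met the rule. With Florentine low 2 left out, 61 genes met it, 28 of them among the 32.

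Genes that share an annotation with one of the 32 gave a direct comparison within families, and those named here were chosen after their values were seen. Of 19 other genes in both tables, 8 were called lower in low KPY in both trials at FDR 0.05, 14 had an L below 0 in both, 2 above 0 in both, and 3 below 0 at Meunna and above 0 at Florentine. Most of these genes had a name because the study called them on these same libraries, so their directions are not independent evidence. The other NAC 007 gene, Eucgr.A02887, was more abundant, at 159 ± 36.9 CPM in Meunna high and 43.8 ± 16.7 CPM in Meunna low (SD, n = 3, log2 difference -1.87, standard error 0.32, FDR 0.0081). At Florentine its 2 transcripts stood at 149 ± 7.11 against 73.1 ± 22.5 CPM and 122 ± 6.01 against 57.0 ± 17.7 CPM, both called lower (FDR 0.0179 and 0.017). The 2 NAC 007 genes thus had about the same L at Meunna, -1.86 and -1.81, and differed at Florentine, -1.03 and -1.09 against -0.11, a difference that was not tested. Eucgr.I02366, vascular related NAC-domain protein 1, another vessel regulator, had an L of -1.72 at Meunna and -1.27 at Florentine. The fibre regulators Eucgr.E01053 (NAC domain containing protein 12, L -1.84 and -1.17) and Eucgr.D01671 (NAC domain protein 66, L -1.95 and -1.22) were called lower in both trials as well. Eucgr.I02695, xylem NAC domain 1, which in Arabidopsis restrains vessel differentiation, had 2 transcripts in each table and so could not enter the group. Its L was -1.28 and -1.40 at Meunna and 0.24 and 0.19 at Florentine.

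Of the 14 NAC genes with 1 transcript in each table, a list drawn up after the members were seen, 9 were called lower and 3 higher in low KPY at Meunna, and 7 lower and 5 higher at Florentine, with Eucgr.D02027 as the 1 gene of the group. Of 57 genes with a peptidase, protease or nuclease word in their name, chosen in the same way, 26 were called lower and 4 higher at Meunna, and 34 lower and 10 higher at Florentine, and the group held 3 of them. The search by name also took in a protease inhibitor (Eucgr.A00973) and a ribonuclease binding protein (Eucgr.D02146), and it missed the rhomboid gene Eucgr.K03129 of the group. Over all transcripts 16.9% were called lower and 11.1% higher at Meunna, and 20.0% lower and 19.5% higher at Florentine. Genes on both lists had a name mostly because the study called them on these same libraries. The high shares called on the lists were thus largely set by the choice of genes, and nothing is read from them. Other proteases took other courses. Eucgr.D00484, xylem bark cysteine peptidase 3, was at 74.4 ± 16.4 against 51.2 ± 29.8 CPM at Meunna (L -0.54, FDR 0.358) and 82.4 ± 4.95 against 47.6 ± 3.68 CPM at Florentine (L -0.79, FDR 0.0148). Eucgr.I00879, the second granulin-repeat protease, was called lower in both trials (L -0.84 and -0.53) at 348 and 379 CPM in the high KPY classes, far above Eucgr.H02220. Eucgr.A02174, metacaspase 9, which in Arabidopsis takes part in the clearing of dying vessels, was at 6.36 ± 3.94 against 2.96 ± 1.01 CPM at Meunna (L -1.08, FDR 0.129) and 0.765 ± 0.34 against 2.58 ± 0.46 CPM at Florentine (L 1.63, FDR 0.0178). In the other families, Eucgr.D01614 of the Berberine type had an L of -1.84 and -1.68. The thaumatin gene Eucgr.B00944, at 452 and 336 CPM in the high KPY classes, had -2.04 and -1.60. Other relatives had an L below 0 at Meunna and above 0 at Florentine. The other TIR-NBS-LRR genes did so, Eucgr.I02561 with -1.83 and 0.07 and Eucgr.H02490 with -1.54 and 0.71. Their edgeR FDR was 0.0589 and 0.0561 at Meunna, and 0.864 and 0.11 at Florentine. Eucgr.I02561 is next to Eucgr.I02560 by number, and reads shared between them were not tested. The thaumatin gene Eucgr.J02061 had -0.30 and 0.32. The cupin Eucgr.H04161 had a wider Meunna difference than Eucgr.G00032, at -2.79, and missed the Florentine limit with -0.34. Of 14 lists drawn from the annotation, those of defence and of transcription factors held 1 gene of the group each (Eucgr.I01898 and Eucgr.D02027) and the others held 0. The 44 genes of secondary wall polysaccharides, 11 of lignin synthesis and 69 of the cytoskeleton had median L of -1.97 and -1.39, -1.67 and -1.07, and -1.50 and -1.12 at Meunna and Florentine. These lists too hold mostly genes that the study called on these same libraries. Genes of these kinds that were not called had no name and could not enter, so the medians are only a description of the lists.

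**Figure D4:**
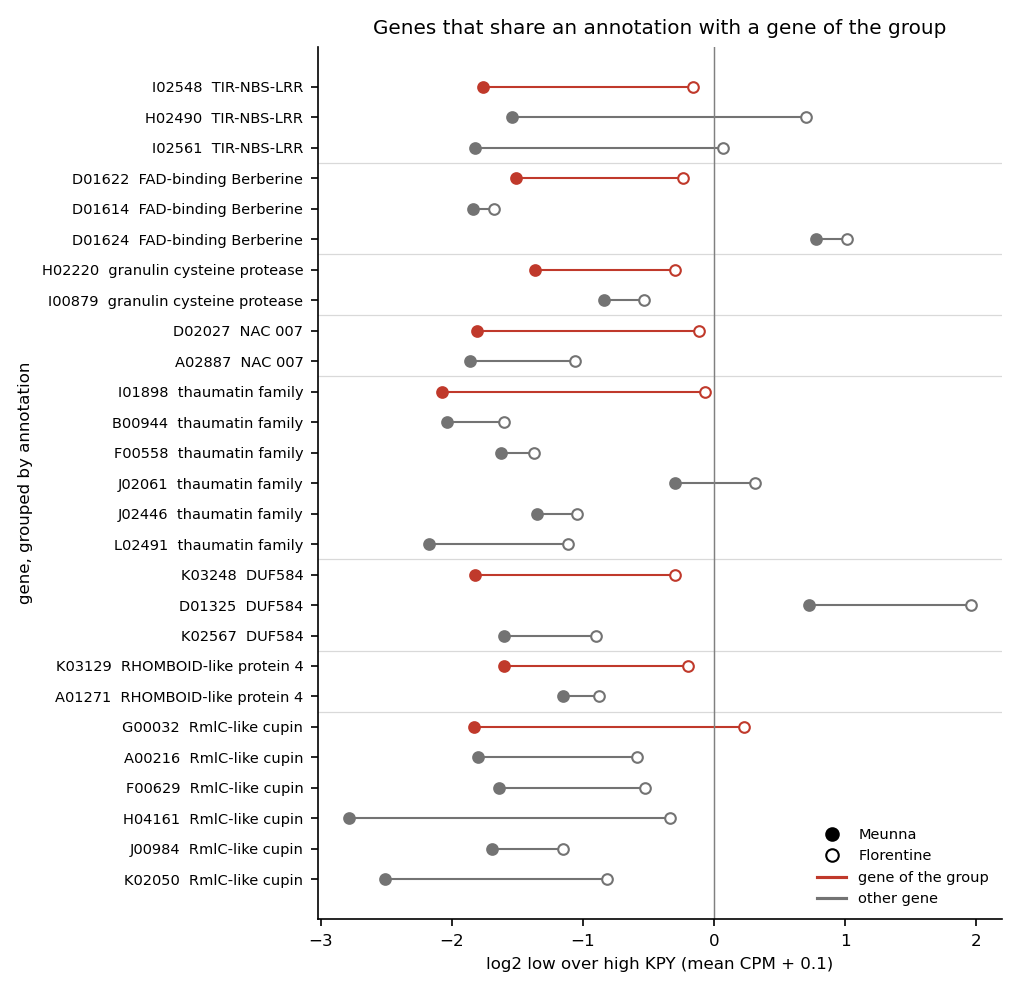
KPY difference (log2 of mean low over mean high KPY CPM, transcripts of a gene averaged) at Meunna (filled) and Florentine (open) for 8 of the 32 genes (red) and 19 other genes with the same annotation (grey). Red lines end near 0 at Florentine by the choice of the genes, while most grey lines end below 0, such as Eucgr.A02887 beside Eucgr.D02027.

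The difference between the trials averaged over both KPY classes was the 1 contrast on which the rule set no limit. The CPM minimum in each trial still kept out genes of low level in either, while the 12224 genes were not held to it. The contrast asks where Florentine lay relative to the middle of the Meunna classes. It was fitted with edgeR on the 12 libraries scaled together. In that fit 16 of the 32 genes passed FDR 0.05, 8 higher and 8 lower at Florentine, against 45.2% of the 12224 genes (23.4% higher and 21.8% lower). With library size alone it called 7 of the 32 higher and 10 lower, against 13.6% of the genes higher and 33.9% lower. DESeq2 called 18 of the 32, against 50.6% of the genes. The share of the 32 was close to that of all genes, so it is no result about them as a group. The median difference was -0.14 on the log2 scale over the 32 and 0.01 over all genes. The transcripts were predicted separately in each trial, and a longer or shorter prediction moves this difference, so its part here was not tested.

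Single genes differed strongly between the trials. Eucgr.K00110 was lower at Florentine by a log2 difference of -1.79 (standard error 0.25, FDR 0.000297), with all 6 Florentine bulks at or below 19.4 CPM and the Meunna bulks at 12.4 to 149 CPM. Eucgr.B01237 had -2.24 (0.57, 0.00941), Eucgr.J01610 -1.30 (0.32, 0.00788), Eucgr.E02507 -1.11 (0.13, 0.000104) and Eucgr.K02697 -0.82 (0.12, 0.000469), with the standard error and the FDR in parentheses. The direction upwards was led by Eucgr.B03877 at 1.12 (0.24, 0.00343), Eucgr.A00649 at 0.86 (0.16, 0.00184), Eucgr.F02003 at 0.83 (0.16, 0.00221), Eucgr.L03417 at 0.71 (0.20, 0.0161) and Eucgr.K03505 at 0.69 (0.23, 0.0303). The other calls were Eucgr.G00032 (-0.79), Eucgr.K03464 (-0.57) and Eucgr.D01622 (-0.46) lower and Eucgr.K01223 (0.68), Eucgr.H00679 (0.58) and Eucgr.K00153 (0.53) higher at Florentine. With each of the 12 bulks left out in turn, 12 of the 16 calls held throughout, and those of Eucgr.D01622, Eucgr.G00032, Eucgr.K03464 and Eucgr.K03505 were lost without at least 6 of the bulks, each in turn. The NAC factor Eucgr.D02027 (-0.32, standard error 0.29, FDR 0.392), the xylem cysteine peptidase Eucgr.F03589 (-0.75, 0.29, 0.0598) and the xylem serine peptidase Eucgr.D02423 (-0.66, 0.27, 0.0686) did not pass. Of the 13 annotated genes 12 had a difference below 0 and 4 were called lower. Of the 19 others 13 were above 0, with 8 called higher and 4 lower. The 13 annotated genes had the most negative L at Meunna, so this split is also one by a value used in choosing the genes. Of the 10 genes with the largest fall 9 were lower at Florentine, and of the other 22 also 9.

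By mean level in the 12 libraries scaled together, Florentine lay between the Meunna classes for 18 genes, above the Meunna high mean for 7 and below the Meunna low mean for 7. For 2 genes, Eucgr.B01237 and Eucgr.E02507, all 6 Florentine bulks were below all 6 Meunna bulks, and for 0 genes all were above. Eucgr.K00153 had a Florentine mean of 84.1 CPM on this scale, against 86.3 CPM in Meunna high and 39.3 CPM in Meunna low, so its Florentine trees stood with Meunna high. Eucgr.D02423 had 7.58 CPM against 20.4 and 6.96 CPM, and Eucgr.F03589 had 52.2 CPM against 139 and 55.1 CPM, so their Florentine trees stood with Meunna low. A near level at Florentine therefore covered levels near the top, the middle and the bottom of the Meunna range.

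**Figure D5:**
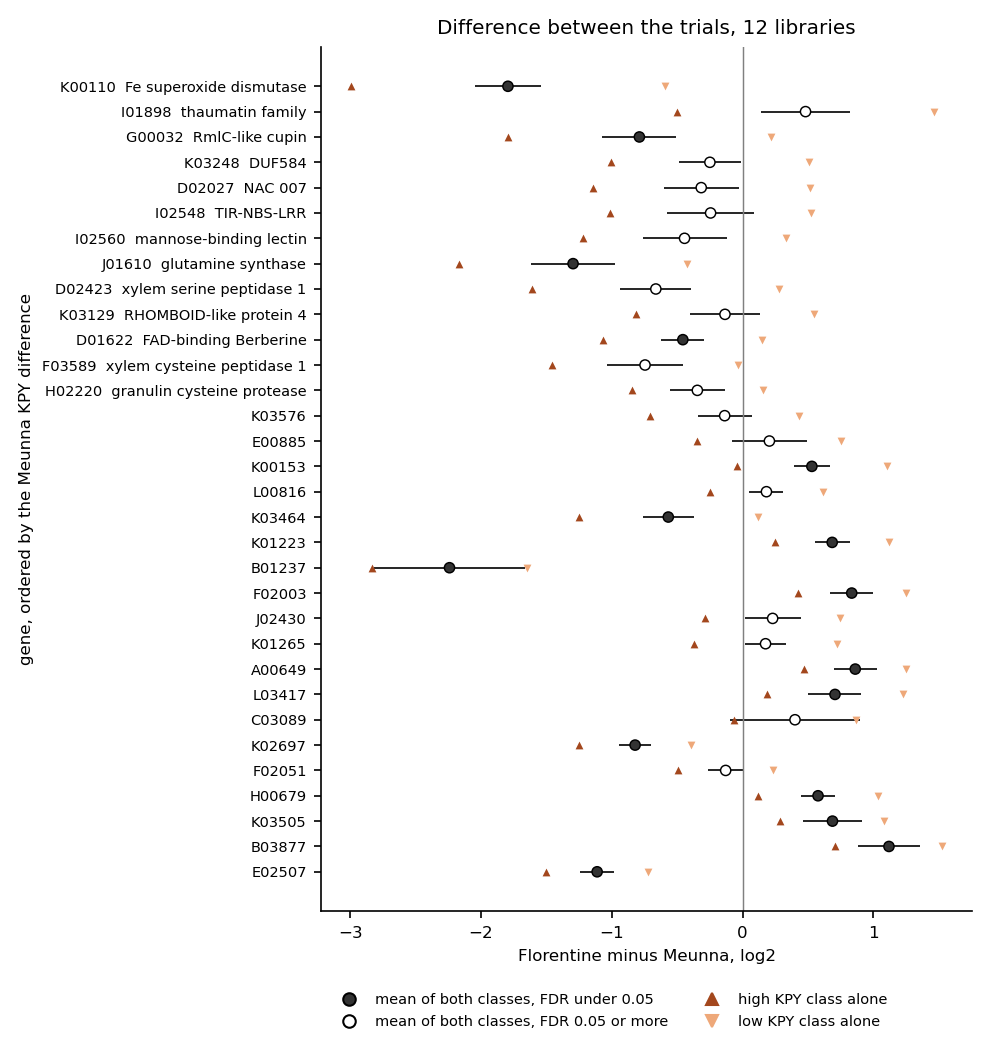
Florentine minus Meunna difference on the log2 scale for the 32 genes, averaged over both KPY classes (circles with standard error, filled where FDR was under 0.05) and within the high (upward triangles) and low KPY class (downward triangles). Rows are ordered by L at Meunna. The 13 annotated genes at the top lie mostly left of 0 and the lower rows on both sides. Each low KPY triangle lies to the right of its high KPY triangle by the choice of the genes.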

How the data were processed

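RNA from cambial scrapings was pooled into bulks, and 1 library per bulk was sequenced as paired ends. According to the methods of the study, the authors trimmed adapters in CLC Genomics Workbench v6.0.4, discarded reads of low quality, mapped the pooled reads of a trial with TopHat v2.0.9 and Bowtie v0.12.7 against the genome of E. grandis, predicted transcripts in each trial separately with Cufflinks v1.1.0 and no annotation, and counted reads per transcript and bulk with BEDtools v2.18.1. The deposited values were whole read counts per predicted transcript with no normalization, 1 table per trial, after transcripts of low CPM had been removed by the authors. The genome version and the use of strand in counting are not given in the sources used here, so reads of near-identical, overlapping or antisense genes may be shared. Rows with no gene identifier (4754 transcripts at Meunna and 3692 at Florentine) stayed in library totals and in the tests of each trial. No column of per-sample values was left unused (0).

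The group was rebuilt from TMM CPM of each table (R 4.3.3, edgeR 4.0.16) by the limits given above. KPY differences in each trial were fitted with edgeR's quasi-likelihood test on the 6 libraries of the trial, and the interaction and the trial difference on the 12 libraries and the genes with 1 transcript in each table, with Benjamini-Hochberg adjustment over all features and an FDR of 0.05. Standard errors are the log2 difference divided by the square root of the F statistic. DESeq2 1.42.0, other scalings, limits and CPM minimums, thinned counts, summed transcripts, a replicate block and the loss of each library were tried as alternatives. On simulated counts with 200 changed features, the fit recovered 136 at Meunna (26279 transcripts) and 157 at Florentine (23917). It recovered 145 for the interaction and 193 for the trial difference (12224 genes each). False calls were 8, 6, 6 and 8 in that order. The change put into the simulated features was larger than the differences of nearly all the 32 genes. These counts therefore do not give the share of such genes that a test would find.

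Gene names came from the annotation columns of the study's supplementary tables, with no values taken. Genes named in the text were the 10 with the most negative L at Meunna, the 10 with the highest mean CPM over the 12 libraries, those on 1 of 14 gene lists drawn from the annotation, the 5 with the largest trial difference in each direction and the 3 genes on each side of each limit. The other members, the genes that share an annotation with a member and the NAC and peptidase genes were named after their values were seen. The lists covered wall polysaccharides, pectin, lignin, the cytoskeleton, cell cycle, auxin, clock and light, heat shock, defence, protein kinases, transcription factors, ribosomal proteins, transporters and sugar. A search that reads capitals strictly left the resistance gene Eucgr.I02548 out of the defence list. The genes and the lists were chosen with earlier results of these data known.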

Additional observations from a re-analysis of the deposited data

Results flagged for a closer look

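By DESeq2 the KPY difference differed between the trials past an FDR of 0.05 for 2 of the 32 genes, Eucgr.K00110, the Fe superoxide dismutase, and Eucgr.K00153, with 0.532% of the genes called. The rule that chose the genes fixed the direction of this difference, and edgeR's interaction contrast called 0 of the 32 and 0 of the 12224 genes.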

How the results depend on the processing

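The number of genes that met the rule was 32, and it was 49 and 17 with a CPM minimum of 1 and 10, 21 and 77 with a Florentine limit of 0.2 and 0.5, and 54 and 18 with a Meunna limit of -0.8 and -1.2. Other scalings gave 24 to 27 genes, of which library size alone shared 9 with the 32, and TMM over the 12 libraries, added after seeing the data, gave 35 with 19 shared. With 1 library left out the rule took 28 to 61 genes. The count of the 32 called at Meunna then ran from 14 to 22 (15.8% to 22.7% of all transcripts), that at Florentine from 0 to 1 (43.0% of all transcripts at most, and 0 of 23917 without Florentine high 1 or high 3, and by DESeq2, added after seeing the data, 0 to 2 of the 32 and 34.1% to 50.9% of all), and the trial difference called 12 to 18 of the 32. At Florentine library size alone gave 1 call, and DESeq2 gave 2 calls of the interaction. With 1 library left out, the trial difference changed sign for 5 genes that had not passed the test, with ranges from -0.26 to 0.023 for Eucgr.K03576, -0.40 to 0.12 for Eucgr.I02548, -0.47 to 0.025 for Eucgr.D02027, -0.30 to 0.018 for Eucgr.K03129 and -0.00177 to 0.66 for Eucgr.C03089. Replicate numbers did not pair the bulks, with correlations of same-numbered deviations from -0.08 to 0.26, and with them as a replicate block 26 genes were called at Meunna, 0 at Florentine, 0 for the interaction and 16 for the trial difference (7 higher and 9 lower). The causes of these shifts were not tested. With 3 bulks a class, an L near 0 at Florentine for a gene that scatters between bulks is only loosely held, and levels between the trials also carry the separate transcript predictions.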
